A study of Mus musculus with 14 samples.

Results

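The transcripts described here are those of the mitochondrial genome, the small circular chromosome inside mitochondria, in hematopoietic stem cells of the mouse. They were chosen by name, as the genes of the single-cell tables whose mouse symbol starts with mt-. Of the 25832 genes in the 4 tables, 26 were such genes, namely 13 messenger RNAs, 2 ribosomal RNAs and 11 transfer RNAs. The tables of plates 350W, 351W, 352W and 353W listed 19, 17, 24 and 20 of them. A further 11 symbols with this prefix in the name table, all of transfer RNAs, were not analysed here.

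The series examined hematopoietic stem cells of mice lacking Phf19, an accessory protein of Polycomb repressive complex 2, which methylates histone H3 at lysine 27. The cells came from bone marrow depleted of cells with lineage markers and were labelled as CD150+ and CD48-, a surface phenotype used to enrich stem cells. They were measured by MARS-Seq, a plate-based single-cell method that tags the 3' end of polyadenylated RNA with molecular identifiers, on 4 plates of 192 wells. The cell names in the tables carry the prefix KO or WT, and 335 KO cells and 381 WT cells with at least 500 counts were kept. The plates' labels state no genotype, so KO and WT are used here as the prefixes of the names. The labels of the plates also leave out which driver deleted Phf19, the age and number of the mice, and whether mice with floxed but intact Phf19, the controls of the other assays, gave the WT cells. The plate was taken as the replicate (n = 4), so the spread given is that between plates. In every plate the WT cells occupy wells 1 to 96 and the KO cells wells 97 to 192, so genotype prefix and well position cannot be told apart in a plate.

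The mitochondrial genome encodes subunits of respiratory complexes I, III, IV and V, the ribosomal RNAs of the mitochondrial ribosome and its transfer RNAs. Both strands are transcribed as long precursors by a polymerase of their own, POLRMT, with the factor TFAM, and the precursors are then cut into single RNAs, largely at the transfer RNAs that lie between the others. All other subunits of these complexes are encoded in the nucleus. Hematopoietic stem cells are known for a low reliance on oxidative phosphorylation at rest, with more use of it on activation.

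Kept cells held 220821 to 382307 counts per plate in KO cells and 311886 to 510791 in WT cells, with median counts per cell of 2230 to 4483.5 in KO cells and 2920 to 5006 in WT cells. Fewer wells passed the minimum among KO wells, where 49 were left out, than among WT wells, where 3 were. Of 15 HSC markers, 12 to 15 had counts in each group of cells, with summed levels of 1395 to 1756 CPM (counts per 1000000 counts of the group) in KO cells and 1412 to 1890 CPM in WT cells. Hlf, a stem cell transcription factor, had 158 to 406 CPM in KO cells and 208 to 372 CPM in WT cells, whereas Slamf1, which encodes CD150, had 0 to 5 counts in KO cells and 0 to 16 in WT cells and was at 0 in both groups of plate 353W. Single markers differed between plates more than the sum did. Cd34, which marks progenitors and activated stem cells, had, in the order 350W, 351W, 352W and 353W, 31.6, 41.6, 245 and 364 CPM in KO cells, against 22.4, 30.4, 312 and 345 CPM in WT cells, and Gata2, a stem cell transcription factor, had 207, 109, 36.2 and 62.8 CPM in KO cells, against 292, 101, 22 and 76.4 CPM in WT cells. Cd48, whose protein the labelled phenotype lacks, had 1, 0, 49 and 11 counts in KO cells, against 0, 0, 62 and 24 counts in WT cells, so that it was highest in 352W. What these markers have to do with the mitochondrial shares below was not tested. Phf19 itself had 0 to 2 counts in KO cells and 0 to 5 in WT cells of a plate, which is too few to check the prefixes, and where a 3' tag lies relative to the deletion is not stated.

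The share of all counts that fell in mitochondrial genes differed widely between plates. It was 2.88%, 0.253%, 6.11% and 0.998% of the counts of KO cells on plates 350W, 351W, 352W and 353W, against 2.65%, 0.623%, 5.83% and 1.72% in WT cells, and values by plate follow this order throughout. The highest plate was 24.1-fold above the lowest in KO cells and 9.36-fold above it in WT cells. In both groups the order from high to low was 352W, 350W, 353W and 351W. Exact 95% binomial intervals, which cover counting error only, did not overlap between any pair of plates within a group, the closest being 0.967% to 1.03% in KO cells of 353W and 0.236% to 0.271% in KO cells of 351W. In single cells the medians were 2.81%, 0.256%, 6.31% and 0.908% in KO cells, against 2.71%, 0.560%, 6.07% and 1.38% in WT cells. Single KO cells ranged over 0.95% to 5.45% in 350W, 0% to 1.12% in 351W, 2.36% to 11.3% in 352W and 0.278% to 2.48% in 353W. Single WT cells ranged over 0.589% to 5.20%, 0.145% to 1.92%, 2.31% to 9.13% and 0.432% to 4.56%. No cell of plate 352W was as low as the highest cell of plate 351W. A single cell of the 716, a KO cell of plate 351W, had no mitochondrial count.

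**Figure D1:**
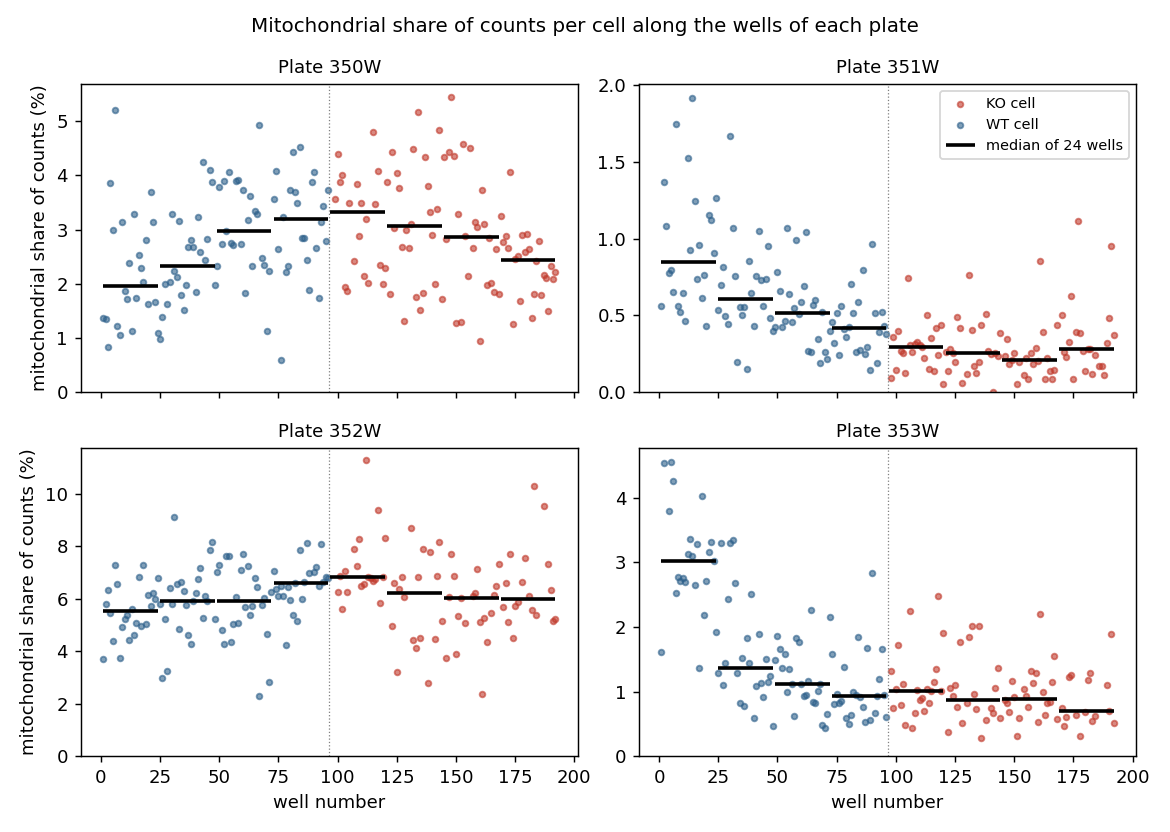
Share of counts in mitochondrial genes (y axis, percent) of each kept cell by well number (x axis), with 1 panel a plate, each with its own y scale; KO cells lie in wells 97 to 192, WT cells in wells 1 to 96, and lines give the median of the cells in each run of 24 wells. Cells of 352W lie highest and those of 351W lowest, and in 351W and 353W the WT cells are lower in later wells, toward the level of the KO cells.

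Depth did not order the plates in this way: the plate with the lowest share, 351W, had median counts per cell of 3120 in KO cells and 3806 in WT cells, above those of 352W, the plate with the highest share, at 2552.5 in KO cells and 2920 in WT cells. After each cell was thinned to 500 counts, the median number of mitochondrial genes detected was 6, 1, 9 and 3 in KO cells, against 6, 2, 9 and 5 in WT cells. Without thinning these medians were 10, 3, 12 and 9 in KO cells and 11, 6, 12 and 10 in WT cells. The order of plates in the number of genes detected was thus the same at equal depth. Transcripts of nuclear-encoded respiratory chain subunits, a list that also holds the Sdh genes of complex II, did not span a comparable range. The 87 nuclear-encoded respiratory chain subunits together had 13189, 15799, 15836 and 17394 CPM in KO cells, against 12893, 15714, 16834 and 17373 CPM in WT cells. The highest plate of this list was 1.32-fold above the lowest in KO cells and 1.35-fold in WT cells.

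The ribosomal RNAs took more counts than the messenger RNAs together in 350W, 351W and 352W, and fewer in 353W. mt-Rnr2, the RNA of the large mitochondrial ribosomal subunit, had 10919.8, 1379, 21343 and 3471 CPM in KO cells, against 10026, 3405, 19176 and 6141 CPM in WT cells. It was detected in 95.5% of the KO cells of 351W and in every cell of the other groups. mt-Rnr1, the RNA of the small subunit, had 3852, 92.8, 12014 and 777 CPM in KO cells, against 4239, 226, 12150.0 and 1956 CPM in WT cells. It was detected in nearly every cell of 350W and 352W, but in 23.6% of KO cells and 42.7% of WT cells of 351W, where mt-Rnr2 remained in 95.5% of KO cells and every WT cell. Together these RNAs held 51.3%, 58.2%, 54.6% and 42.6% of the mitochondrial counts of KO cells, against 53.9%, 58.3%, 53.7% and 47.0% of those of WT cells. Across cells of a plate, the share of ribosomal RNAs and that of messenger RNAs correlated with Pearson's r of 0.424, 0.096, 0.170 and 0.413 over 74 to 92 KO cells and 0.692, 0.482, 0.404 and 0.793 over 95 or 96 WT cells. These values are descriptions, as both shares come from the same cell, depth and wells.

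Among the subunits of complex IV, cytochrome c oxidase, which passes electrons to oxygen, mt-Co1 encodes the catalytic subunit that holds the haem groups. It had 2594, 249.5, 4112 and 1083 CPM in KO cells, against 2225, 721, 3765 and 1674 CPM in WT cells. mt-Co2, the subunit that receives electrons from cytochrome c, had 1236, 22.4, 3419 and 254 CPM in KO cells, against 1087, 71.0, 3179 and 654 CPM in WT cells. mt-Co3, the third core subunit, had 397, 16, 1762 and 73.2 CPM in KO cells, against 385, 55.8, 1398 and 196 CPM in WT cells. All 3 had their highest level in 352W and their lowest in 351W in both groups, but the 2 last were detected in at most 7.87% of KO cells and 17.7% of WT cells of 351W, where mt-Co1 was detected in 52.8% of KO cells and 85.4% of WT cells. mt-Cytb, cytochrome b of complex III, which passes electrons from ubiquinol to cytochrome c, had 2796, 106, 4406 and 1041 CPM in KO cells, against 2357, 388, 4684 and 1552 CPM in WT cells. Its order of plates was the same.

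Complex I, NADH dehydrogenase, passes electrons from NADH to ubiquinone, and all 7 of its mitochondrial subunits were in the tables. mt-Nd4, a proton-pumping subunit, had 2309, 365, 2975 and 1318 CPM in KO cells, against 1981, 566, 2984 and 1664 CPM in WT cells. mt-Nd1, which borders the quinone site, had 1493, 80.0, 3713 and 756 CPM in KO cells, against 1491, 200.5, 4076 and 1265 CPM in WT cells. mt-Nd5, another pumping subunit, had 920.1, 99.2, 1431 and 526 CPM in KO cells, against 721, 279, 1363 and 809 CPM in WT cells. In each of these, as in mt-Nd2, plate 352W was highest and 351W lowest in both groups. mt-Nd2, also a pumping subunit, had 410.5, 25.6, 1363 and 152 CPM in KO cells, against 356, 63.4, 1218 and 319 CPM in WT cells. mt-Nd6, the messenger RNA encoded on the strand opposite to all the others, had 244, 41.6, 349 and 180.5 CPM in KO cells, against 234, 107, 349 and 151 CPM in WT cells. In both groups together its plates spanned less than those of any other subunit with over 200 counts. mt-Nd4l had 22, 1, 22 and 4 counts in KO cells and 18, 14, 39 and 29 counts in WT cells, and mt-Nd3 had 10 counts in all. mt-Nd4l overlaps mt-Nd4, and mt-Nd6 overlaps mt-Nd5 from the opposite strand, and since the use of strand in counting is not stated the split between overlapping genes is uncertain.

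Of the ATP synthase subunits of complex V, mt-Atp6, which forms part of the proton channel, had 1525, 48.0, 4039 and 311 CPM in KO cells, against 1276, 104, 3733 and 752 CPM in WT cells. It was detected in 14.6% of KO cells and 30.2% of WT cells of 351W, against 95.9% of KO cells and 98.9% of WT cells of 352W. mt-Atp8, which overlaps it, had 20 counts in all over 3 plates and was not analysed in 351W. The 11 transfer RNAs held 66 counts in all kept cells, led by mt-Tt with 21, mt-Tl1 with 16, mt-Tp with 10, mt-Ti with 8 and mt-Tf with 3.

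**Figure D2:**
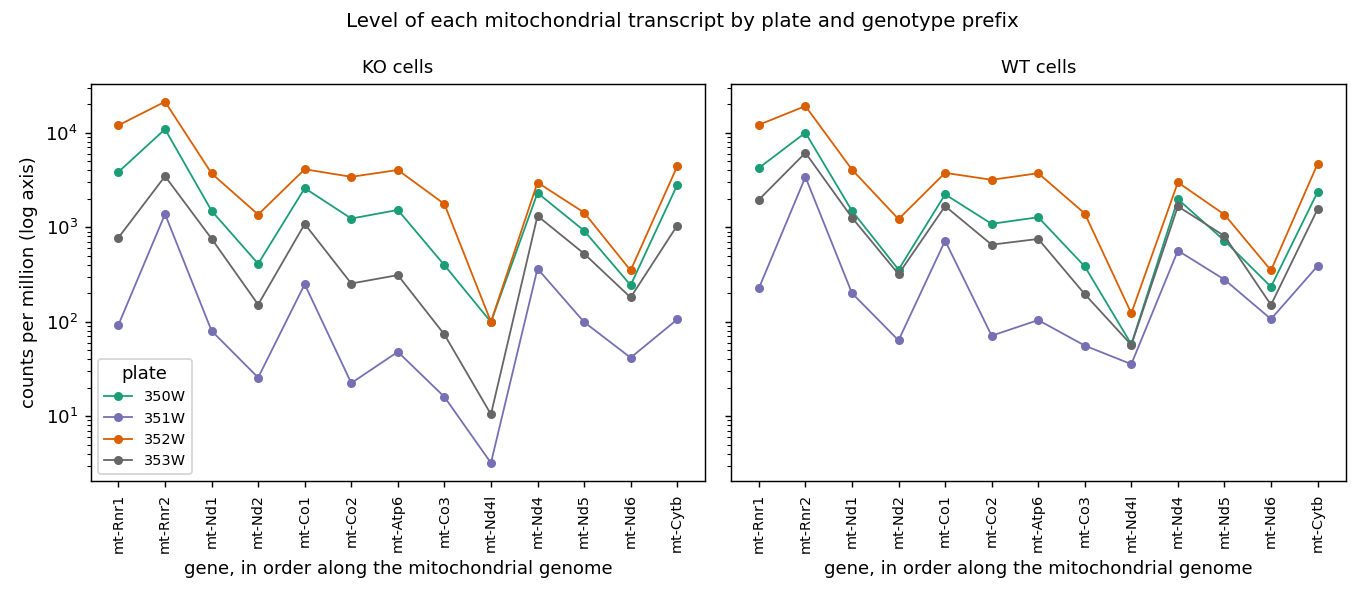
Level of the 13 mitochondrial transcripts with over 100 counts (y axis, CPM, log axis) in KO cells, left, and WT cells, right, of each plate, with genes in their order along the mitochondrial genome on the x axis; each point is a sum over the kept cells of that group. The lines are not parallel, and mt-Rnr1, mt-Co2, mt-Atp6 and mt-Co3 are spread furthest between plates 352W and 351W.

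The transcripts did not share the plate difference evenly. In all cells of a plate together, the level in 352W over that in 351W was 72.4-fold for mt-Rnr1, 66.2-fold for mt-Co2, 48.7-fold for mt-Atp6 and 40.5-fold for mt-Co3. It was 27.4-fold for mt-Nd2, 26.7-fold for mt-Nd1 and 17.4-fold for mt-Cytb. For mt-Rnr2 it was 8.0-fold, for mt-Co1 7.63-fold, for mt-Nd5 6.97-fold, for mt-Nd4 6.25-fold and for mt-Nd6 4.49-fold. The median of the 12 mitochondrial genes with at least 200 counts in all was 22-fold, beside 0.888-fold over all 2739 genes with that many. At least 4-fold higher in 352W were 12 of the 12, beside a background of 4.97% of the 2739 genes. In 350W, 11 of the 12 were at least 4-fold above 351W, beside a background of 3.36%, and in 353W 6 of the 12 were, beside 3.29%. The plates are single samples with no stated group between which to test.

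In terms of counts, mt-Rnr2 made 32.0% of the difference in share between 352W and 351W, mt-Rnr1 21.7%, mt-Cytb 7.85%, mt-Nd1 and mt-Atp6 6.89% each, mt-Co1 6.19%, mt-Co2 5.88% and mt-Nd4 4.56%. The makeup of the mitochondrial counts differed accordingly. mt-Rnr2 held 54.6% of them in 351W, where mt-Rnr1 held 3.64%, whereas in 352W mt-Rnr2 held 33.8% and mt-Rnr1 20.3%. In 350W these parts were 37.9% for mt-Rnr2 and 14.9% for mt-Rnr1, and in 353W 35.4% and 10.3%. Between 353W and 351W, mt-Rnr2 made 26.1% of the difference, mt-Rnr1 13.5%, mt-Cytb 11.2% and mt-Nd4 10.9%.

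The share was also uneven within plates. Cells were taken in runs of 24 wells, in well order. In 353W the KO runs, from wells 97 to 120 on, had 1.15%, 1.01%, 0.861% and 0.910%, and the WT runs, from wells 1 to 24 on, had 3.09%, 1.52%, 1.22% and 1.02%. In 351W the KO runs had 0.261%, 0.253%, 0.194% and 0.303%, and the WT runs 0.934%, 0.660%, 0.535% and 0.399%. In these plates the WT runs were lower the later the wells, and the last of them lay nearest to the KO runs. In 350W the WT runs went the other way, with KO runs at 2.97%, 3.10%, 3.07% and 2.40% and WT runs at 2.22%, 2.39%, 3.01% and 3.05%. In 352W the KO runs had 6.99%, 5.81%, 5.6% and 6.03%, and the WT runs 5.44%, 5.75%, 5.86% and 6.35%. Pearson's r of the share with well number was −0.320, 0.0855, −0.149 and −0.150 across single KO cells (74 to 92 a plate) and 0.358, −0.530, 0.278 and −0.700 across single WT cells (95 or 96 a plate). In the 4 WT runs of 353W, transcripts of nuclear-encoded respiratory chain subunits took 1.65%, 1.84%, 1.74% and 1.72% of counts. Median counts per cell were 4349, 4339.5, 5291.5 and 4749. The nuclear copies of mitochondrial sequence, described below, took 0.838%, 0.362%, 0.271% and 0.209%. These correlations describe cells that share a plate, and a cause for the course along the wells was not tested.

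The transcripts that differed most between the first and the last WT wells of 353W were largely those with a large ratio between plates. The level in wells 1 to 24 over that in wells 73 to 96 was 13.7-fold for mt-Co3, 8.08-fold for mt-Nd2, 7.43-fold for mt-Atp6 and 6.19-fold for mt-Co2, on 60, 97, 219 and 196 counts in the first wells and 4, 11, 27 and 29 in the last. It was 4.03-fold for mt-Rnr1, 3.49-fold for mt-Nd1 and 3.44-fold for mt-Cytb, and 2.86-fold for mt-Nd4, 2.55-fold for mt-Rnr2, 2.12-fold for mt-Co1, 1.56-fold for mt-Nd5 and 1.55-fold for mt-Nd6. Over these 12 genes the ratio correlated with that of 352W over 351W at Spearman's rho 0.825, a description across genes of the same genome, with no p given. A second pair of ratios that share no plate, 350W over 351W and 352W over 353W, had rho 0.791 over 13 genes. In 351W, where WT runs also fell, the largest such well ratios were 4.30-fold for mt-Cytb, 3.17-fold for mt-Rnr1 and 3.06-fold for mt-Co1. There mt-Co3 had 2.32-fold, mt-Nd2 2.03-fold and mt-Nd4, the smallest, 1.36-fold. Genes with at most 3 counts in either run, such as mt-Atp6, were left out. In 350W these ratios were 0.39 (mt-Co3) to 0.95 (mt-Nd4), and in 352W 0.71 (mt-Rnr2) to 1.44 (mt-Nd6).

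**Figure D3:**
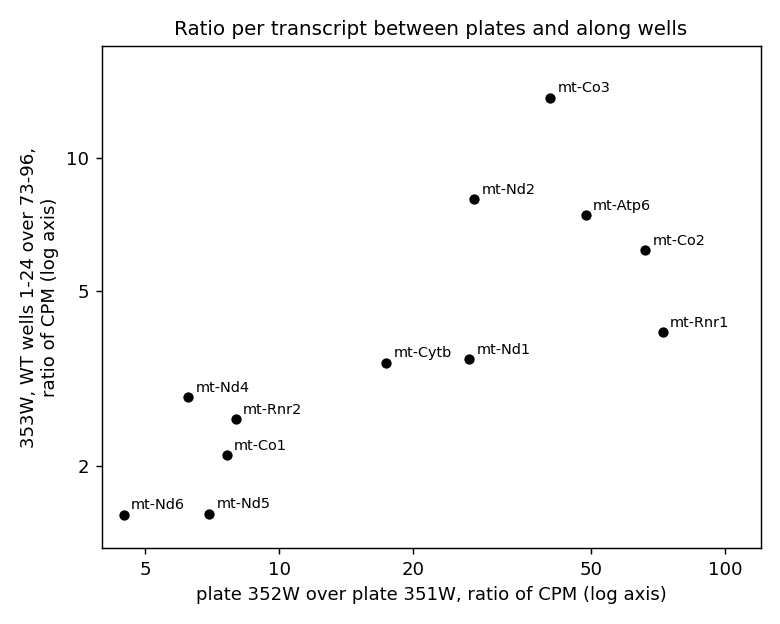
For 12 mitochondrial transcripts, the ratio of the level in wells 1 to 24 to that in wells 73 to 96 of plate 353W, WT cells (y axis, log axis), against the ratio of plate 352W to plate 351W (x axis, log axis), both as ratios of CPM. mt-Co3, mt-Nd2, mt-Atp6, mt-Co2 and mt-Rnr1 are high in both, and mt-Nd4, mt-Rnr2, mt-Co1, mt-Nd5 and mt-Nd6 are low in both.

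Between KO and WT cells the plates did not go the same way. The share of mitochondrial counts was higher in KO cells by 0.235 percentage points in 350W and 0.279 in 352W, while the difference of KO minus WT was −0.370 points in 351W and −0.725 points in 353W. The mean difference of KO minus WT was −0.145 ± 0.487 points (SD, n = 4 plates), with KO cells at 2.56 ± 2.61% and WT cells at 2.71 ± 2.24%, and the groups overlapped. As a ratio, KO over WT was 1.09, 0.406, 1.05 and 0.579. In 351W, mt-Rnr2 made 54.8% of the difference, mt-Co1 12.7% and mt-Cytb 7.64%. In 353W, mt-Rnr2 made 36.8%, mt-Rnr1 16.3%, mt-Co1 8.15%, mt-Cytb 7.06% and mt-Nd1 7.02%. The part of mitochondrial counts in ribosomal RNAs was lower in KO cells of 3 of the 4 plates, with a mean difference of −1.58 ± 2.41 points (SD, n = 4 plates).

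At the border of the groups, where KO wells 97 to 120 follow WT wells 73 to 96, the shares lay closer together than over all wells in 3 plates. In 353W they were 1.15% in KO wells and 1.02% in WT wells, in 350W 2.97% in KO wells and 3.05% in WT wells, and in 351W 0.261% in KO wells and 0.399% in WT wells. In 352W they lay further apart, at 6.99% in KO wells and 6.35% in WT wells. Over these 48 wells a plate, the mean difference of KO minus WT was 0.138 ± 0.354 points (SD, n = 4 plates). It was −0.0763 ± 0.227 points (SD, n = 4 plates) when wells 1 to 24 were left out. Both choices of wells were made after the shares along the wells were seen, and both drop the WT run with the highest share in 351W and 353W.

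All genes were tested for KO against WT with edgeR's quasi-likelihood test on counts summed per plate and prefix, with the plate as a block. Of the 13 mitochondrial genes with enough counts for the test, 0 passed an adjusted p of 0.05, beside a background of 0.0917%, or 6 of the 6541 genes tested (0.0306% higher and 0.0612% lower in KO cells). At an unadjusted p below 0.05 were 4 of the 13, beside a background of 6.08%. DESeq2 also called 0 of the 13, beside 1 of all 6541 genes. It had 1 of the 13 at an unadjusted p below 0.05, beside 63 of the 6541. All 13 had a log2 fold change below 0, with a median of −0.35, beside 50.7% of all genes below 0 and a median of −0.004. These 13 are transcripts of the same genome in the same 4 plates, so their shared sign is not 13 separate observations. When only wells 73 to 120 were used, 5 of the 12 genes then tested were below 0 and the median was 0.001.

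mt-Rnr1 had the lowest adjusted p of these genes, with log2 KO over WT of −0.14, −1.28, −0.02 and −1.33 in the plates and a fitted value on the log2 scale of −0.56 (SE 0.158, edgeR adjusted p = 0.454). It was lower in KO cells of all 4 plates, by little in 350W and 352W. For mt-Rnr2 the plate values were 0.12, −1.30, 0.15 and −0.82 and the fitted value was −0.44 (SE 0.159, edgeR adjusted p = 0.721), with 2 plates on each side. For mt-Nd1 they were 0.002, −1.33, −0.13 and −0.74, with a fitted value of −0.40 (SE 0.131, edgeR adjusted p = 0.645). mt-Cytb, the last of the 4, had 0.25, −1.88, −0.09 and −0.58 and a fitted value of −0.37 (SE 0.176, edgeR adjusted p = 0.80). The other 9 genes had fitted values of −0.66 for mt-Nd4l (SE 0.423), whose KO level rests on 1 count in 351W and 4 in 353W, to −0.09 for mt-Nd6, with edgeR adjusted p-values of 0.80 to 0.963. mt-Nd6 was the only one of the 12 genes with over 200 counts that was higher in KO cells of 353W, with a log2 difference of 0.26 on 69 counts in KO cells and 77 in WT cells. Every gene of these 12 was lower in KO cells of 351W, with log2 differences of −1.88 for mt-Cytb to −0.63 for mt-Nd4.

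The outcome of the test rested on the block, on plates and on filters. With no plate block, edgeR called 0 of the 6541 genes and 0 of the 13, with 86 of all genes and 0 of the 13 at an unadjusted p below 0.05, and 10 of the 13 were then below 0. Without plate 352W, edgeR called 12 of 7492 genes (0.16%), among them mt-Rnr1 at −0.78 (adjusted p = 0.0012) and mt-Rnr2 at −0.63 (adjusted p = 0.00382). Without 353W the fitted value of mt-Rnr1 was −0.25 (edgeR adjusted p = 0.935), and without 351W that of mt-Rnr2 was −0.17 (edgeR adjusted p = 0.956). Over the 4 fits that each leave out a plate, mt-Rnr1 was at −0.78 to −0.25 and mt-Rnr2 at −0.63 to −0.17, with adjusted p-values of 0.0012 to 0.940 and 0.00382 to 0.956. With no filter on low counts it called 26 of 25820 genes (0.101%), among them mt-Rnr1, mt-Rnr2 and mt-Nd1, at fold changes near those given above. What differed was the SE, at 0.0624, 0.0465 and 0.0826 for these 3 genes, against 0.158, 0.159 and 0.131 with the filter. These calls thus do not reflect a larger difference between KO and WT cells.

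**Figure D4:**
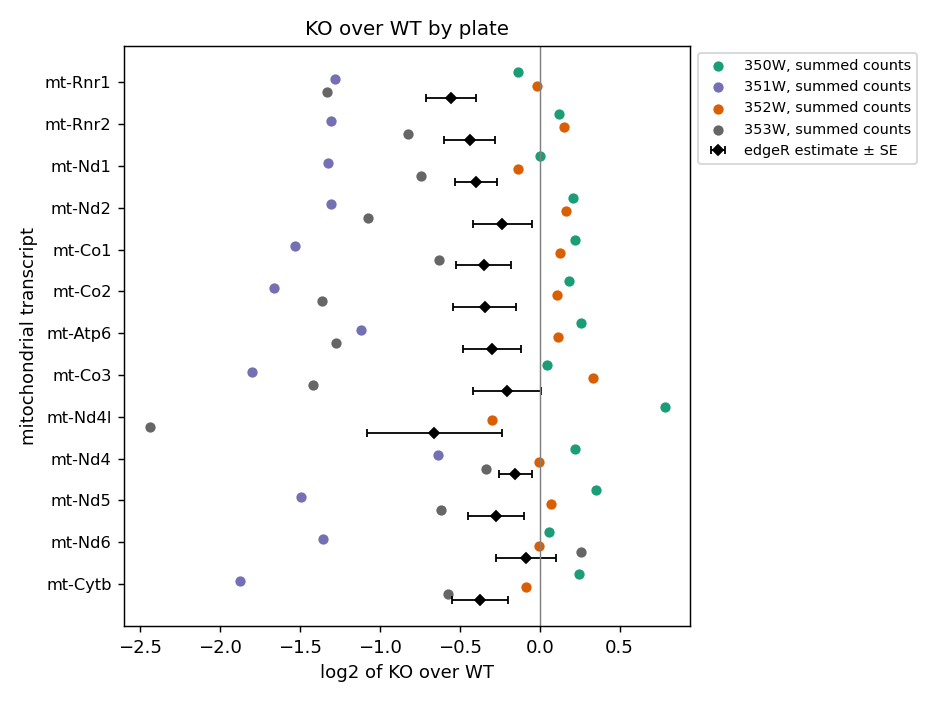
Log2 of the level in KO cells over that in WT cells (x axis) for the 13 mitochondrial transcripts that edgeR tested (y axis); dots give each plate where both groups had more than 3 counts, diamonds the edgeR estimate ± SE, and the line at 0 marks equal levels. The SE was derived from the F statistic. Of these 13, dots of 351W lie below 0 wherever shown and those of 353W do except for mt-Nd6, while dots of 350W and 352W lie closer to 0, the furthest being mt-Nd4l in 350W at 0.78.

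Sums over many cells cannot tell fewer cells with a transcript apart from less of it per cell, but the share of cells with a count gives part of this. mt-Co1 was detected in 98.9%, 52.8%, 100% and 92.5% of KO cells and 97.9%, 85.4%, 100% and 94.7% of WT cells. In 351W both the share of cells and the summed level were lower in KO cells, and in 350W and 352W nearly every cell of both groups had a count. mt-Atp6 was detected in 87.0%, 14.6%, 95.9% and 56.2% of KO cells and 91.6%, 30.2%, 98.9% and 73.7% of WT cells. KO cells had fewer counts per cell than WT cells in each plate, and such shares depend on depth. At 500 counts per cell, 23.6% of KO cells and 11.5% of WT cells of 351W had no mitochondrial count, as had 6.25% of KO cells and 0% of WT cells of 353W.

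Nuclear copies of mitochondrial sequence, pieces of the mitochondrial genome that lie in nuclear chromosomes, can share reads with the genes above, and 9 such annotated genes were in the tables. Gm10925, a pseudogene whose synonym in RefSeq is mt-Atp6, had 3701 counts in all, against 3373 for mt-Atp6. Its counts per cell correlated with those of mt-Atp6 at Pearson's r of 0.972 over 716 cells and equalled them in 31.0% of the 516 cells with a count of either. By plate its total was 1.05, 1.23, 1.10 and 1.13 times that of mt-Atp6. Of the other copies with over 100 counts, Gm28661 was closest to mt-Co2 (r = 0.964), Gm28437 to mt-Co3 (r = 0.939), Gm29216 to mt-Co1 (r = 0.891), Gm13340 to mt-Co1 (r = 0.865), Gm13341 to mt-Co2 (r = 0.864), Gm13339 to mt-Nd2 (r = 0.793) and Gm28439 to mt-Cytb (r = 0.558). No listed copy was closest to a ribosomal RNA. These correlations are across cells of all plates and carry the plate differences.

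The copies together took 0.752%, 0.0470%, 1.69% and 0.198% of counts in KO cells, against 0.637%, 0.118%, 1.54% and 0.422% in WT cells. They were thus highest in 352W and lowest in 351W, and lower in KO cells in 351W and 353W, as the mitochondrial genes were. Of the 8 copies tested by edgeR, 0 were called and 0 had an unadjusted p below 0.05, beside backgrounds of 0.0917% and 6.08%. All had a log2 fold change below 0, with a median of −0.33, beside 50.7% of all genes below 0. With the copies added, the share of a plate was 3.43%, 0.546%, 7.55% and 1.74%. How reads that match both a mitochondrial gene and a copy were assigned is not stated in the sources used here. No read was examined, so whether the copies' counts come from mitochondrial RNA was not tested.

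**Figure D5:**
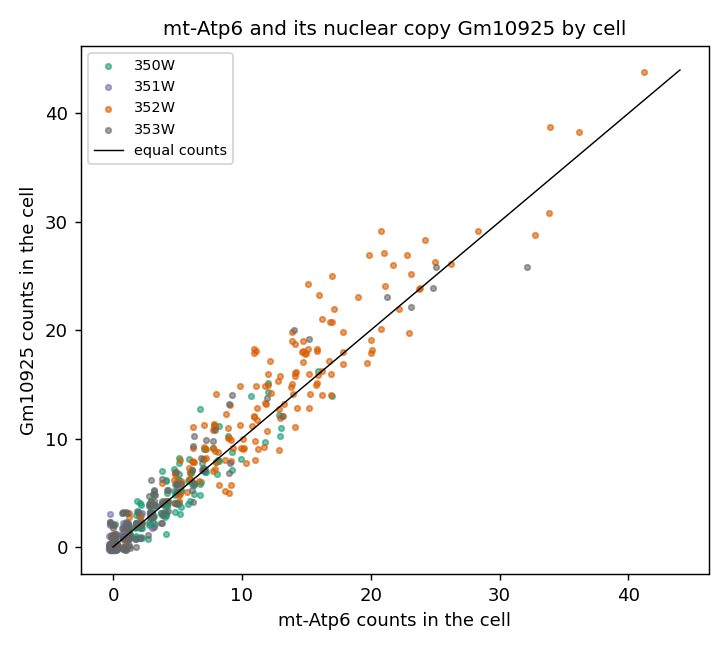
Counts of Gm10925 (y axis) against counts of mt-Atp6 (x axis) in each of the 716 kept cells, coloured by plate; points are moved slightly at random so that equal ones can be seen, and the line marks equal counts. The cells lie along the line over the whole range, with those of 352W at the upper end.

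Few of the nuclear genes for mitochondrial gene expression had enough counts for the test. Of 18 mitochondrial transcription and replication factors, 4 could be tested by edgeR. Of these, 0 passed at an adjusted or an unadjusted p below 0.05, beside backgrounds of 0.0917% and 6.08% of all genes tested. Tfam, which packages the mitochondrial genome and starts its transcription, had a log2 fold change of 0.03 (SE 0.395), Mterf3, of the mitochondrial transcription termination factor family, 0.11 (SE 0.184), Ssbp1, the single-stranded DNA binding protein of replication, −0.22 (SE 0.211), and Mgme1, a nuclease of mitochondrial DNA maintenance, 0.05 (SE 0.312). Of 27 factors of mitochondrial RNA processing and stability, 5 could be tested and 0 passed at either, beside the same backgrounds. Log2 fold changes of the 5 ran from −0.18 to 0.30 with a median of 0.18, and 4 were above 0. Hsd17b10, a subunit of mitochondrial RNase P, had 0.30 (SE 0.185), and Mtpap, the mitochondrial poly(A) polymerase, had 0.03 (SE 0.264). The level of Mtpap itself differed between plates, with 40.6, 345, 4.53 and 7.85 CPM in KO cells, against 32.1, 325, 12.6 and 9.79 CPM in WT cells, so that it was highest in 351W, the plate with the lowest mitochondrial share. This gene was singled out after its values were seen, and the order of the other plates was not that of the mitochondrial share. Other factors named here differed between plates too. Mgme1 was highest in 350W, with 284, 57.6, 4.53 and 47.1 CPM in KO cells, against 423, 27.9, 15.7 and 19.6 CPM in WT cells. Ssbp1 was highest in 352W in both groups, and Tfam, Mterf3 and Hsd17b10 were highest in 351W. A link of such levels to the mitochondrial share was not tested. Of 9 regulators of mitochondrial biogenesis, 6 could be tested and 0 passed at either, beside the same backgrounds. Log2 fold changes of the 6 ran from −0.21 to 0.32 with a median of 0.06, with 4 above and 2 below 0. Myc had 0.03 (SE 0.161) and Ppargc1a −0.06 (SE 0.262).

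Of the 87 nuclear-encoded respiratory chain subunits, 77 were tested by edgeR, 0 passed, beside a background of 0.0917%, and 8 had an unadjusted p below 0.05, beside a background of 6.08%, with 36 above and 41 below 0 and a median log2 fold change of −0.02. The most abundant, Ndufa13, Atp5e, Ndufa2 and Cox6a1, had log2 fold changes of −0.04 (SE 0.113), 0.03 (SE 0.112), −0.14 (SE 0.118) and −0.09 (SE 0.103). Of the 78 mitochondrial ribosomal proteins, which join mt-Rnr1 and mt-Rnr2 in the mitochondrial ribosome, 54 were tested. Of these, 0 passed and 2 had an unadjusted p below 0.05, beside the same backgrounds. There were 26 above and 28 below 0, with a median of −0.02. The difference between this list and the mitochondrial genes was not tested.

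Markers of other cells differed between plates too. The summed level of the lymphoid and B cell markers was 90.2, 141, 8980 and 1643 CPM in KO cells, against 86.6, 145, 12204 and 3884 CPM in WT cells, nearly all of it from Ighm and Igkc where it was high. Ighm, the constant part of the immunoglobulin mu chain, was called lower in KO cells by edgeR (log2 fold change −1.10, SE 0.181, adjusted p = 0.0246), on counts almost wholly from 352W and 353W. The summed level was lower in KO cells of 352W and 353W and differed little in 350W and 351W. In 351W Ighm and Igkc had 0 counts in both groups, so that plate cannot show a difference in them. Megakaryocyte markers, 7 in the list, had 613, 138, 81.5 and 167 CPM in KO cells, against 728, 173, 56.7 and 80.3 CPM in WT cells. Erythroid markers, 9 in the list, had 448 to 1069 CPM in KO cells and 386 to 1036 CPM in WT cells, mostly Car2. Myeloid markers had 271 to 683 CPM in KO cells and 324 to 674 CPM in WT cells, with Mpo at 0 in both groups of 350W and 351W, and endothelial and stromal markers 63.4 to 67.7 CPM in KO cells and 81.8 to 96.4 CPM in WT cells. Their part in the differences above was not tested.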

How the data were processed

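MARS-Seq tables of 4 plates were used. The authors deposited them as raw whole-number counts for each gene in each well, and by the labelled protocol a count is a molecular identifier. The submitters' processing notes name the build GRCm38.p4 and FastQC; aligner, counter and strand setting: not given in the sources used here. Of 25832 gene IDs, 25714 matched a mouse symbol. Other assays of the series were not used here.

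The members and lists were chosen with earlier results of these data known. All 13 messenger RNAs and both ribosomal RNAs are named, with the 5 most counted transfer RNAs and up to 4 tested members of each nuclear list with the highest levels; others are named where a result turns on them. Of 768 wells, 716 held at least 500 counts, and those holding fewer were left out. No cell name was shared between plates. Doublets were not called. Counts were summed per plate and prefix. CPM are counts per 1000000 counts of such a sum.

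KO and WT sums were compared with edgeR 4.0.16 (R 4.3.3; TMM, filterByExpr, quasi-likelihood F test, plate as block, Benjamini-Hochberg adjustment over all genes). The cells of a plate share a table, and KO and WT sums of the same plate deviated together from their group means (r of 0.771 to 0.847 over 2739 genes), so the plates pair the sums. On simulated counts of 6045 genes for this comparison, the recovered share was 10% at 1.5-fold, 60.0% at 2-fold and 92.5% at 4-fold, with 5 false among 132 calls. The simulation gave every gene the same preset dispersion and changed only genes above a minimum mean count. Its dispersion was not fitted to the mitochondrial genes, so these shares do not give the recovery for them. Alternatives were DESeq2 1.42.0, other scalings, filters on genes, cells and wells, thinning to 500 counts and leaving out each plate. Python 3.11.15, pandas 2.3.3 and scipy 1.17.1 were used for the rest.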

Additional observations from a re-analysis of the deposited data

Results flagged for a closer look

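Wells under 500 counts were not used in any comparison, and they held mitochondrial counts. In 350W they held 43 mitochondrial counts among 1458 (2.95%, exact 95% binomial interval 2.14% to 3.95%). In 351W they held 6 among 2715 (0.221%, 0.0811% to 0.480%). In 352W they held 325 among 7749 (4.19%, 3.76% to 4.66%), and in 353W 62 among 4541 (1.37%, 1.05% to 1.75%). They were flagged because the mitochondrial counts of each plate were above a floor of 3. That rule concerns the number of counts only and tests nothing about these wells. The order of the plates was that of the kept cells, and 49 of these 52 wells have the KO prefix. Among KO wells alone, those left out had 2.58% (1.76% to 3.65%) in 350W and 0.221% (0.0811% to 0.480%) in 351W, intervals that hold the share of the kept KO cells, 2.88% and 0.253%. In 352W they had 4.20% (3.75% to 4.68%), below the 6.11% of the kept KO cells, and in 353W 1.39% (1.05% to 1.79%), above their 0.998%. These intervals cover counting error only, not the spread between cells, so they do not test left-out against kept wells.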

How the results depend on the processing

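The number of genes called by edgeR between KO and WT cells was 6. It was 0 with no replicate block, 26 with no filter on genes, 3 with no minimum per cell, 0 with cells thinned to 500 counts, 1 with wells 73 to 120 only and 1 with DESeq2, and 2 to 12 when each plate was left out. Mitochondrial genes called numbered 0 except 3 with no filter on genes and 0 to 2 when each plate was left out; the cause was not tested. Log2 fold changes turned positive for mt-Nd2 (0.00817), mt-Atp6 (0.0270) and mt-Co3 (0.16) with no replicate block, for mt-Nd2 (0.0239) without wells 1 to 24 and for mt-Nd6 (0.18) with thinned cells. With wells 73 to 120 only they did so for mt-Co2 (0.30), mt-Atp6 (0.26), mt-Co3 (0.10), mt-Nd4 (0.0331), mt-Nd5 (0.00248), mt-Nd6 (0.000326) and mt-Cytb (0.20). Leaving out each plate gave ranges of −0.50 to 0.0584 for mt-Nd2, −0.61 to 0.0264 for mt-Co2, −0.56 to 0.0542 for mt-Atp6, −0.65 to 0.10 for mt-Co3 and −0.22 to 0.11 for mt-Nd6, the highest being without 353W, or without 351W for mt-Nd6. As a mean over cells the share of a plate was 2.80% in 350W, 0.477% in 351W and 6.10% in 352W, and with nuclear copies added it was 3.43%, 0.546%, 7.55% and 1.74% in the 4 plates. The mean difference of KO minus WT in the share was −0.287 to 0.0479 points when each plate was left out, within the SD between plates. The choices by well number and by nuclear copies were added after the data were seen. Limits are the 4 plates, the separate well ranges of KO and WT cells, and low counts for mt-Nd4l, mt-Nd3, mt-Atp8 and the transfer RNAs.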
